A study of Homo sapiens with 24 samples.

Results

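Muscle gene neighbourhoods were examined in RD cells, namely those of ACTA1, ACTC1, DES and CKM, which encode the 2 sarcomeric actins, desmin and the muscle creatine kinase. Members were all peaks of 14 chromatin immunoprecipitation sequencing (ChIP-seq) peak lists that overlapped a fixed hg19 window around each gene. The windows were chromosome 1 from 229.52 to 229.62 Mb for ACTA1, chromosome 15 from 35.03 to 35.14 Mb for ACTC1, chromosome 2 from 220.24 to 220.34 Mb for DES, and chromosome 19 from 45.77 to 45.87 Mb for CKM. They held 200 of the 564552 peaks of all lists: 114 in the DES window, 48 in the ACTA1 window, 26 in the ACTC1 window and 12 in the CKM window. By antibody these were 63 H3K27ac, 76 MYOD, 23 SMARCA4 and 38 Ty1 peaks.

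RD is an established line of fusion-negative rhabdomyosarcoma, a tumour of cells held early in skeletal muscle differentiation. Control cells and cells with knockdown of the transcription factor TWIST2 (TWIST2 KD) were compared, with 2 libraries in each group for each of 3 antibodies. The antibodies were against H3K27ac, the acetylated form of histone H3 found at promoters and enhancers in use, MYOD, the master regulator of muscle differentiation, and SMARCA4 (BRG1), a motor subunit of SWI/SNF chromatin remodellers. A further 2 libraries of a Ty1 antibody came from the group labelled 3xTy1-TWIST2, which is neither a control nor a KD group and shows where tagged TWIST2 sat. H3K27ac, MYOD and Ty1 belong to the set RD-1 and SMARCA4 to the set RD-2; the labels do not explain these names, do not say how TWIST2 was knocked down, and do not say whether replicates were separate cultures. The p-values below therefore refer only to these libraries, whose differences may be technical.

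Sarcomeric actins polymerise into the thin filaments that myosin pulls on. ACTA1 is the main form of adult skeletal muscle, whereas ACTC1 is the cardiac form and is also made in fetal skeletal muscle. DES, the muscle intermediate filament protein, ties neighbouring myofibrils to each other and to the membrane and is made early in the lineage. CKM regenerates ATP from phosphocreatine and is a late gene whose regulatory elements served as classical models of MYOD action. MYOD binds E-boxes (CANNTG), as does TWIST2, and serum response factor binds CArG boxes in actin promoters.

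The 250 bases before the RefSeq start sites are shown for the genes found in the RefSeq promoter table of build GRCh38.p14, because E-boxes and CArG boxes are the sequences through which these genes are classically controlled. Of the 4 genes, 3 were found, and DES was not. Capitals mark CANNTG (6 letters) and the CArG box (10 letters). Both strands were searched, and no marked motif overlapped another. The intervals are chr1:229434095-229434344 for ACTA1, chr15:34795550-34795799 for ACTC1 (1 of 3 start sites listed) and chr19:45322876-45323125 for CKM, all on the minus strand. These positions belong to GRCh38.p14 and cannot be set beside the hg19 positions of the peaks.
ACTA1: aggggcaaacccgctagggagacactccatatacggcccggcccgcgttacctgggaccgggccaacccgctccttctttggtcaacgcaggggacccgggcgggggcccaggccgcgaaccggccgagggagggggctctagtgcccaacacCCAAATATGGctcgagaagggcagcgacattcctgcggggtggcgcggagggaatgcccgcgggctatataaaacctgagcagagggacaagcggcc
ACTC1: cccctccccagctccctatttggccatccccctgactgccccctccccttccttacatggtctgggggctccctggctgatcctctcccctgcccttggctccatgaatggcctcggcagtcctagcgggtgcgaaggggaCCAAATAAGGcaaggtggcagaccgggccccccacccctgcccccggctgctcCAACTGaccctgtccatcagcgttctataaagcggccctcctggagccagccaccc
CKM: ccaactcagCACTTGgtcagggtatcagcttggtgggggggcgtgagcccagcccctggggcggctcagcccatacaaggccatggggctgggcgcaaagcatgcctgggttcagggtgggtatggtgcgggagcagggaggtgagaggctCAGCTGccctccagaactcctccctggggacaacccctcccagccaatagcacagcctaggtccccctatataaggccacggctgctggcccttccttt

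ACTA1 and the ACTC1 site shown each had 1 CArG box, beginning at -97 and -109 from the start site (CCAAATATGG and CCAAATAAGG). This motif was found in 1.16% of 35116 RefSeq promoter windows of the same length. CKM had 2 E-boxes and the ACTC1 site shown had 1, against 61.8% of all promoter windows with at least 1 CANNTG. The ACTC1 start sites not shown had 1 E-box each and no CArG box. One of the CKM E-boxes was CAGCTG, which begins at -99 and occurs in 4911 of the 35116 windows. These are matches of letters, not measured binding sites.

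Both H3K27ac KD lists were longer than both control lists over the whole genome (48022 and 46822 against 36679 and 34932 peaks), which bears on every comparison of coverage below. The MYOD KD lists were also longer (52510 and 48003 against 44974 and 43381), and each MYOD, Ty1 and SMARCA4 list has 1 fixed peak width, so only the presence of those peaks is compared. SMARCA4 control replicate 2 stood apart, with 25013 peaks against 11835 to 14676 in the other 3 libraries and an approximate immunoprecipitation efficiency of 1.83% against 0.65% to 0.88%. Total tags of the SMARCA4 libraries were 36095336 to 46690705; the depth of the other 10 libraries is unknown. No start site of the 4 genes could be placed in hg19, and the windows also reach neighbouring genes. In the GRCh38 gene order the nearest protein-coding neighbours are CCSAP and NUP133 for ACTA1, GJD2 and AQR for ACTC1, DNPEP and SPEG for DES, and MARK4 and KLC3 for CKM. A gene name below therefore stands for its window.

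H3K27ac covered more bases in both KD libraries than in both controls in the ACTA1, ACTC1 and CKM windows, and fewer in the DES window. The ACTC1 window showed the largest difference of the 4, from a control mean of 10289 ± 1390 bp to a KD mean of 24017 ± 1450 bp (SD, n = 2 each). Coverage of all peaks was 7383.5 ± 38.9 bp in control and 10388 ± 206 bp in KD libraries in the ACTA1 window, and 24480 ± 699 bp and 21200 ± 577 bp in the DES window. Each of the 4 windows gave p = 0.333 in a two-sided exact permutation test, which is the lower limit for a design of 2 against 2, so no difference could reach significance. Over the 12 comparisons of 4 windows and 3 antibodies the smallest Benjamini-Hochberg adjusted p was 0.667. Among 16132 genome tiles of 100 kb with an H3K27ac peak, 61.5% had both KD libraries above both controls and 18.2% had both below. Being higher in 3 of 4 windows is thus close to what the genome shows, and the DES window has the less common direction.

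**Figure D1:**
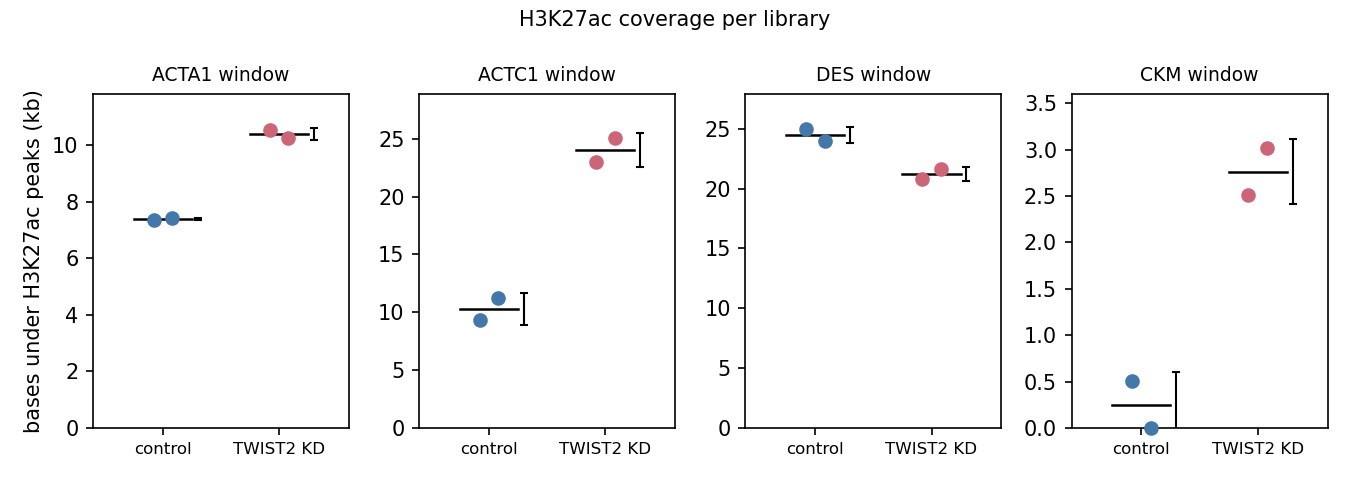
Bases under H3K27ac peaks (kb, y axis) in each window for the 2 control (blue) and 2 TWIST2 KD (red) libraries; points are libraries, horizontal lines means, and side bars 1 SD (cut at 0 for the CKM controls). KD points lie above control points for ACTA1, ACTC1 and CKM and below them for DES; the y axes differ between panels.

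The ACTC1 window, around the actin of fetal and cardiac muscle, had separate H3K27ac peaks in controls and 1 long domain after knockdown. Control replicate 1 had peaks at 35086483 to 35088987 (2505 bp) and 35090612 to 35097415 (6804 bp) on chromosome 15. Control replicate 2 had the same pair of peaks, 3164 and 7207 bp wide, and a further peak at 35102700 to 35103597 (898 bp). Both controls thus had an uncovered gap between the pair. In KD replicate 1 a single peak of 17348 bp ran from 35082083 to 35099430, and in KD replicate 2 one of 19051 bp ran from 35081263 to 35100313. These were among the widest peaks of their lists: 85 of 48022 peaks were wider in KD replicate 1 and 44 of 46822 in KD replicate 2. Both KD peaks spanned the gap, whose 955 bp at 35089639 to 35090593 were uncovered in both controls. They also covered 4392 bp at 35082083 to 35086474 and 1630 bp at 35097801 to 35099430 beyond the control peaks.

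A second ACTC1 element, at 35064794 to 35066989, was present in both KD libraries (2140 and 2165 bp) and in neither control. It was the only KD-only H3K27ac region among the 18 merged regions of the 4 windows (5.56%), against 19.8% of all 55905 merged H3K27ac regions. The region at 35101040 to 35105587 measured 3503 and 3827 bp in the KD libraries, 898 bp in control replicate 2 and was without a peak in control replicate 1. In all, 10970 bp of the ACTC1 window were covered in both KD libraries and neither control, and 0 bp the other way round. That is 42.5% of the bases with H3K27ac in any library, against 20.1% over the genome. The KD minus control difference of 13728 bp was above that of 99.0% of the 100 kb tiles, although the ACTC1 window is 110 kb long. This ranking of bases did not account for level. Mean coverage of the ACTC1 window was above that of 93.5% of tiles, whose median was 4060 bp. Scaled to the total coverage of each library, the difference was 9737 bp.

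**Figure D2:**
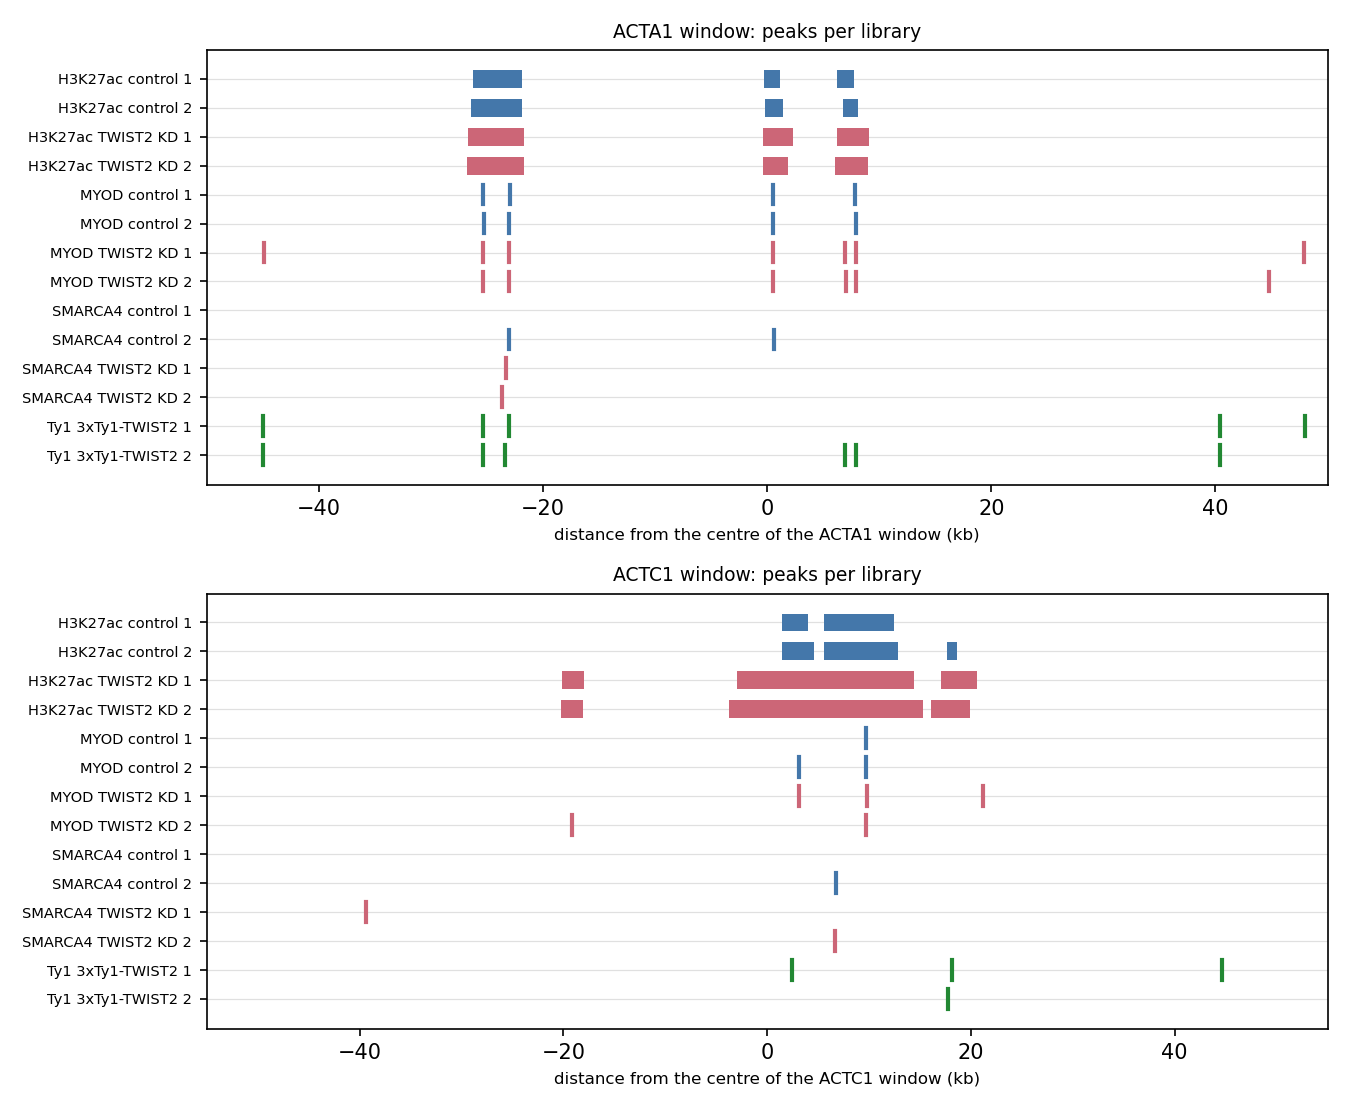
Peaks of all 14 libraries (rows) in the ACTA1 (top) and ACTC1 (bottom) windows by distance from the window centre in kb (x axis); H3K27ac peaks are drawn to scale, other peaks as ticks at their centres, with control in blue, TWIST2 KD in red and tagged TWIST2 in green. In the ACTC1 window the 2 KD rows hold a single domain of 17348 and 19051 bp where the control rows hold separate peaks.

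ACTA1, the skeletal actin, had 3 H3K27ac regions, all present in all 4 libraries, each wider in both KD libraries than in both controls. The widest, at 229543182 to 229548332 on chromosome 1, measured 4375 and 4502 bp in controls and 5026 and 5144 bp after knockdown. The region at 229569670 to 229572294 measured 1459 and 1572 bp in controls and 2624 and 2156 bp after knockdown. The region at 229576094 to 229579103 measured 1522 and 1337 bp in controls and 2884 and 2942 bp after knockdown, a ratio of means of 2.04. No library of 1 group overlapped the other group in any of these 3 regions. Bases covered in both KD libraries and neither control were 17.9% of the H3K27ac bases of the ACTA1 window, close to the 20.1% of the genome. Scaling to the library totals reduced the difference from 3004.5 to 881 bp, and the first 50% of each list gave 5949.5 bp.

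CKM, the creatine kinase of mature muscle, had few bases under called H3K27ac peaks in the control libraries. Control replicate 1 had a single peak of 501 bp at 45826989 to 45827489 on chromosome 19, and control replicate 2 had none in the window. After knockdown 1 peak was present in each library, of 2514 bp at 45824543 to 45827056 in replicate 1 and 3012 bp at 45824808 to 45827819 in replicate 2. The merged region, 45824543 to 45827819, counts as neither shared nor KD-only because of the small control peak. Both KD libraries and neither control covered the 2181 bp from 45824808 to 45826988. That is 66.6% of the bases with H3K27ac in the CKM window, against 20.1% over the genome. These bases are all in the single merged region of 3277 bp. With the first 50% of each list, whose order the files do not explain, the peak of KD replicate 1 was left out, the CKM difference was 1506 bp and the groups overlapped (exact permutation p = 1.0, n = 2 each). The difference of 2512.5 bp was above that of 74.1% of tiles, so a difference of this size is common in the genome.

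DES, the intermediate filament gene, had the most H3K27ac of the 4 windows in both controls, and less than the ACTC1 window in both KD libraries. Its window held 11 and 10 peaks in controls and 8 in each KD library. The mark reached less far after knockdown at 220303596 to 220311740 on chromosome 2, where peaks summed to 6826 and 6879 bp in controls and 4364 and 4435 bp in KD libraries. Within it, 3283 bp from 220308031 to 220311313 were covered in both controls and neither KD library. Each control had 2 peaks in this region and each KD library 1, so part of the lower peak number was fusion. The KD peaks covered 725 bp at 220304994 to 220305718 that were uncovered in both controls. The region at 220324148 to 220326687 measured 2514 and 2472 bp in controls against 1645 and 1398 bp. The region at 220315837 to 220319666 measured 3642 and 3526 bp in controls against 3241 and 3371 bp. In these 3 regions both KD libraries were narrower than both controls.

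Small DES elements at 220295109 to 220295929 (802 and 628 bp) and 220299093 to 220299938 (501 and 759 bp) were found in both controls and in neither KD library. They were the 2 control-only H3K27ac regions among 18 (11.1%, against 4.21% of all regions). The window was not lower throughout: the region at 220268335 to 220274299 measured 4312 and 4290 bp in controls and 5721 and 5710 bp after knockdown. At 220251250 to 220254050 the widths were nearly equal, 2737 and 2724 bp against 2697 and 2788 bp. At 220282492 to 220284058 the KD libraries, 932 and 1567 bp, lay on either side of the controls, 1424 and 1296 bp. Bases covered in both controls and neither KD library made up 18.2% of the DES window's H3K27ac, against 6.4% over the genome. The difference of -3280 bp was below that of all but 4.45% of tiles. That ranking did not account for level either, and mean coverage of the DES window was above that of 97.1% of tiles. Scaled to library totals it was -8879 bp, and with the first 50% of each list it was -975 bp.

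Over the 4 windows, 11 of the 18 merged H3K27ac regions were present in all 4 libraries (61.1%, against 49.1% of all regions). Of these 11, 5 were wider in both KD libraries than in both controls, 3 were narrower and 3 overlapped. Over all 27442 shared regions of the genome, 45.4% were wider and 29.8% narrower, so the counts were near the background. The 5 wider regions were all 3 of ACTA1, the ACTC1 domain and 1 of DES, and all 3 narrower ones lay in the DES window. The median ratio of KD to control width was 1.13 over these 11 regions and 1.05 over all shared regions.

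**Figure D3:**
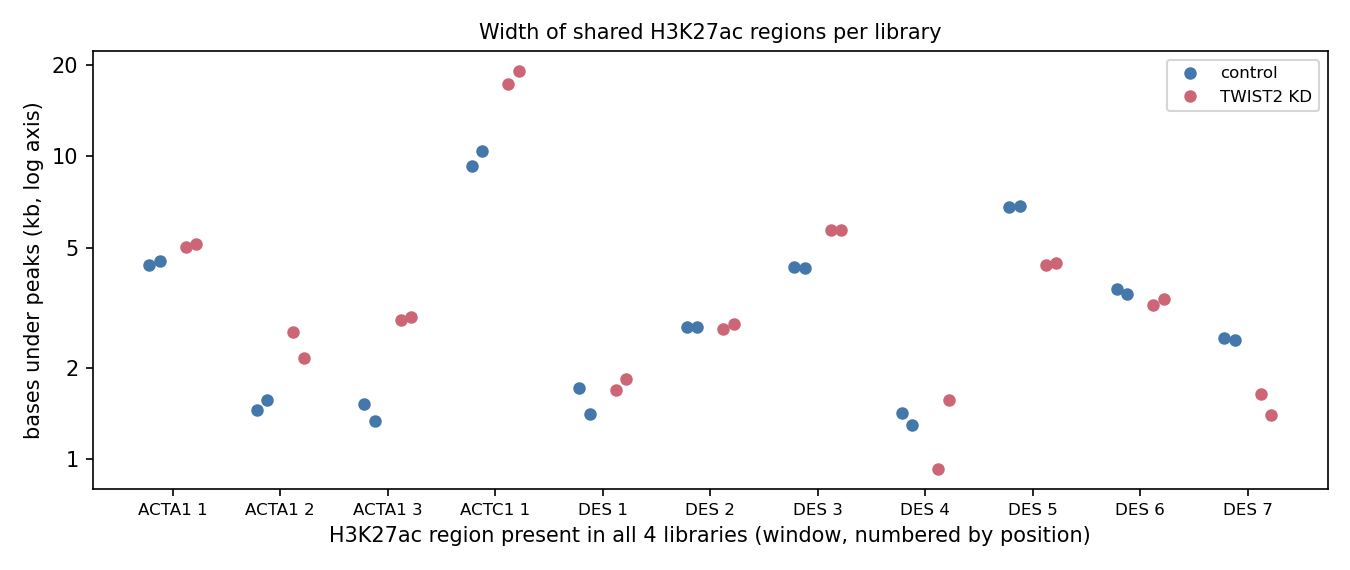
Bases under H3K27ac peaks (kb, log axis) in each library for the 11 regions present in all 4 libraries, in order of position within each window; blue points are control and red points TWIST2 KD libraries. KD points are above control points in all 3 ACTA1 regions and the ACTC1 region, and below them in the fifth, sixth and seventh DES regions.

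Of the 27 merged MYOD regions of the windows, 14 had peaks in all 4 libraries (51.9%, against 20.3% of 88541 genome regions). In 1 of them, the DES region 220242999 to 220243509, the peak centres spread over 315 bp. The peak of KD replicate 1 there, 220242999 to 220243211, overlapped neither control peak (220243253 to 220243411 and 220243331 to 220243509). Of these 14 shared regions, 9 were in the DES window, 4 in the ACTA1 window and 1 in the ACTC1 window. A merged H3K27ac region shared by all 4 libraries was present at 13 of them (92.9%, against 72.0% of all shared MYOD regions). Such a region need not cover the MYOD site itself in every library. At the DES site 220310095 to 220310426, H3K27ac covered the site in controls only. In the ACTA1 window MYOD had 4 peaks in each control and 7 and 6 in the KD libraries (exact permutation p = 0.333). Among 17970 tiles with MYOD, 20.5% had both KD libraries above both controls. The DES window went the other way, with 12 and 11 peaks in controls against 10 and 9 (exact permutation p = 0.333). That direction was seen in 7.84% of tiles. The median tile had 2.0 MYOD peaks, and the DES and ACTA1 windows had means above 99.8% and 87.0% of tiles. Neither share of tiles is therefore a rate for windows with so many peaks. The control-only DES region 220269309 to 220269517 lay beside a MYOD site kept in all 4 libraries. So did the peak at 220252151 to 220252309, which was found in control replicate 1 alone. The peak at 220282858 to 220283137 was missing in KD replicate 2 only. Merging peaks up to 500 bp apart left 0 control-only MYOD regions. The ACTC1 window had 1 and 2 peaks in controls and 3 and 2 in KD libraries, and the CKM window 1 and 2 against 1 and 1, so groups overlapped in both.

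Each of the 3 ACTA1 H3K27ac regions held MYOD in all 4 libraries. At the MYOD region 229577755 to 229578012, however, the H3K27ac peak of control replicate 1 ended at 229577755. The earliest of the shared ACTA1 MYOD regions in the deposited lists, whose order is likewise unexplained, was 229570434 to 229570676, with the 4 peak centres within 24 bp of each other. The next were 229544525 to 229544784 and 229546817 to 229547113, both inside the widest ACTA1 H3K27ac region. The KD-only MYOD region of the 4 windows, 229576844 to 229577144, lay in the ACTA1 H3K27ac region that had the ratio of 2.04. It was 1 of 27 regions (3.70%), against 9.10% KD-only in the genome. The other 2 additional ACTA1 peaks of KD replicate 1 and the other 1 of KD replicate 2 were each found in that library alone.

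The ACTC1 domain had 1 MYOD region in all 4 libraries, 35094625 to 35094870, with centres within 39 bp. It lay inside the wider H3K27ac peak of both controls, so this MYOD site carried H3K27ac in control cells as well. A second site in the domain, 35088047 to 35088265, had a peak in control replicate 2 and KD replicate 1 only. The KD-only H3K27ac element at 35064794 to 35066989 held a MYOD peak in KD replicate 2 alone, at 35065758 to 35065982. No MYOD peak centre of any library fell in the stretches of 4392, 955 and 1630 bp that H3K27ac covered only after knockdown.

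At CKM the H3K27ac peaks of both KD libraries enclosed a MYOD site at 45825670 to 45825946. MYOD was called there in KD replicates 1 and 2 and in control replicate 1, with the 3 centres within 91 bp, but not in control replicate 2. The H3K27ac peak of 501 bp of control replicate 1 did not overlap the site. The remaining 2 CKM peaks, at 45841911 to 45842089 and 45843653 to 45843831, were found in control replicate 2 alone.

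In the DES window MYOD was found in all 4 libraries at places that H3K27ac covered in controls only. The shared MYOD region 220295441 to 220295728 lay in a control-only H3K27ac region, and the shared MYOD region 220310095 to 220310426 in the 3283 bp noted above. The latter place also had a SMARCA4 peak in KD replicate 1 and a Ty1 peak in replicate 2. The shared regions earliest in the lists were 220304391 to 220304640, 220317692 to 220317944 and 220269819 to 220270086, all in H3K27ac regions of all 4 libraries. The control-only MYOD region, 220269309 to 220269517, lay in the DES H3K27ac region that was wider after knockdown, beside the shared MYOD region 220269819 to 220270086. It was 1 of 27 regions (3.70%), against 5.41% control-only in the genome.

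**Figure D4:**
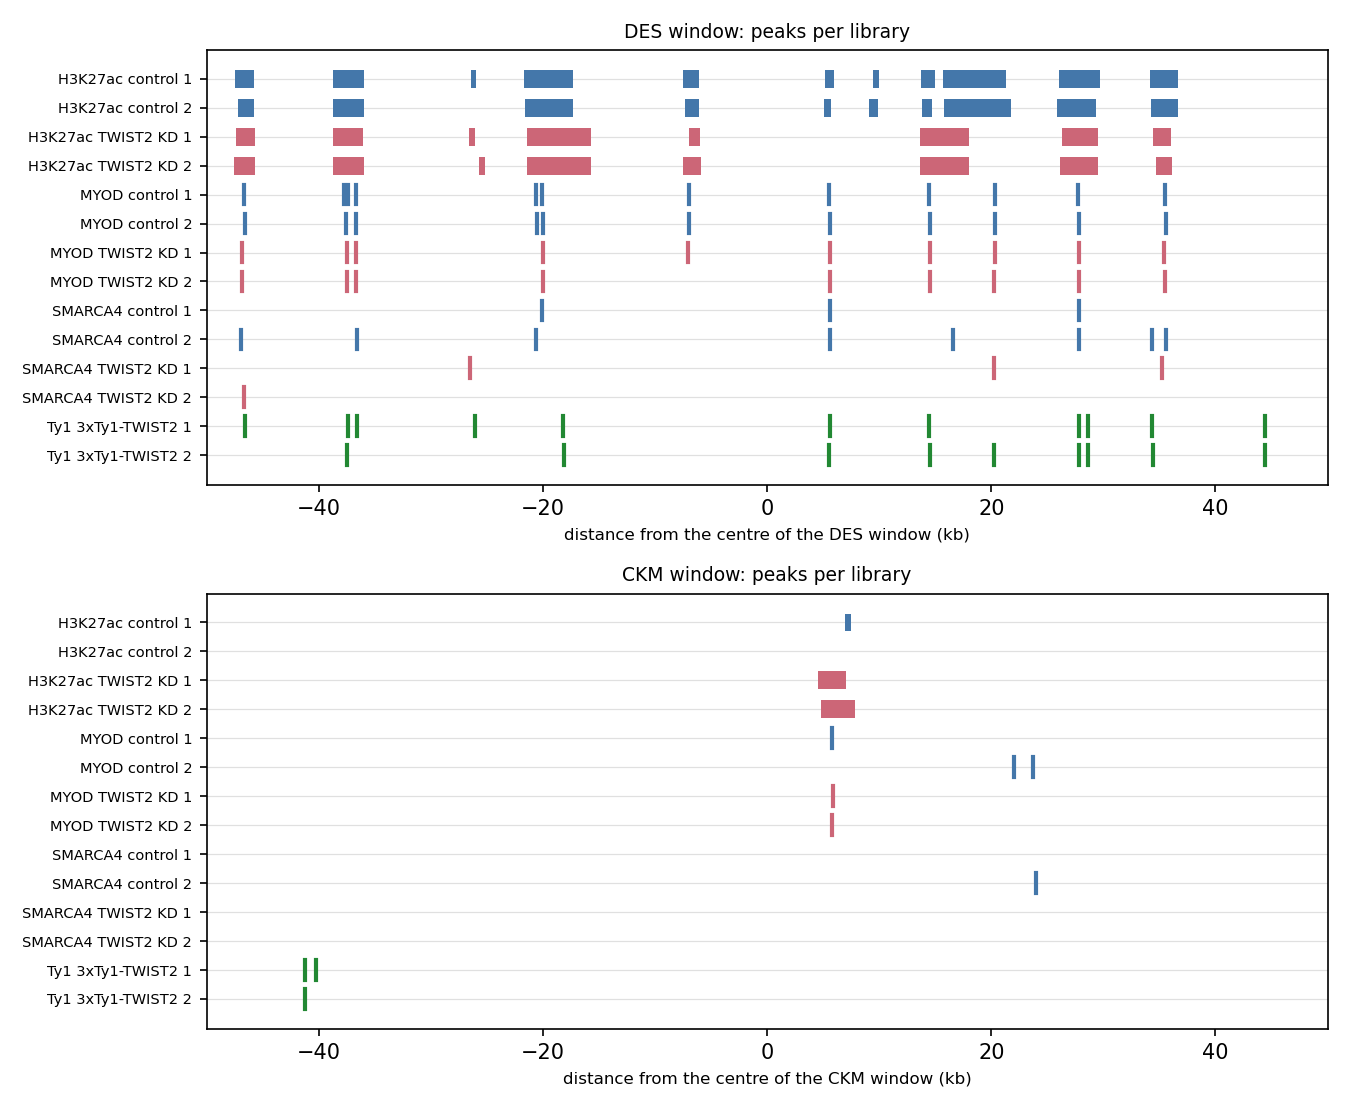
Peaks of all 14 libraries (rows) in the DES (top) and CKM (bottom) windows by distance from the window centre in kb (x axis), with H3K27ac to scale and other peaks as ticks at their centres; control is blue, TWIST2 KD red and tagged TWIST2 green. H3K27ac bars in the DES window number 11 and 10 in the control rows and 8 per KD row, and the 2 KD peaks of the CKM window, 2514 and 3012 bp, enclose a MYOD tick.

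SMARCA4 peaks were most numerous in the DES window, whose mean number over the 4 libraries was above that of 99.3% of tiles with SMARCA4, against 53.0% for the ACTA1 window. The DES window held 3 and 8 in controls and 3 and 1 in KD libraries, the ACTA1 window 0 and 2 against 1 and 1, the ACTC1 window 0 and 1 against 1 and 1, and the CKM window 0 and 1 against 0 and 0. Groups overlapped in all 4 windows (exact permutation p from 0.667 to 1.0, n = 2 each). Among 15689 tiles with SMARCA4, 4.67% had both KD libraries above both controls and 11.8% had both below. Of 21 merged SMARCA4 regions, 19 were found in 1 library only (90.5%, against 74.5% of all SMARCA4 regions). Merging asked for an overlap of 1 bp, so close peaks of different libraries could count as separate regions. In the ACTC1 window, 35091549 to 35091693 (KD replicate 2) and 35091727 to 35091885 (control replicate 2) were such neighbours. With peaks up to 500 bp apart merged, there were 3 control-only and 0 KD-only SMARCA4 regions. An H3K27ac region of any class was present at 19 of the 21 (90.5%, against 74.2%). There were 0 regions shared by all 4 libraries and 0 KD-only regions, against 1.11% and 1.91% of all 48009 SMARCA4 regions.

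By this overlap rule, the 2 SMARCA4 regions found in more than 1 library were both control-only and both in the DES window (9.52% of 21, against 6.68% control-only in the genome). At 220295530 to 220295724 the HOMER peak score was 64 in control replicate 1 and 65 in replicate 2, with normalized tag counts of 13.7 and 14.1. At 220317711 to 220317920 the scores were 66 and 68, with normalized tag counts of 14.1 and 15.4. These scores are the authors' values for each peak. Both places were also MYOD sites of all 4 MYOD libraries and TWIST2 sites of both Ty1 libraries. The nearest SMARCA4 peaks of the KD libraries lay 14707 and 52230 bp from the centre of the first MYOD site and 7400 and 74470 bp from that of the second. Without control replicate 1, where a single library defines the control group, the control-only count was 12 in place of 2 and the DES difference -6.0 in place of -3.5 peaks; without control replicate 2, the library that stood apart, they were 3 and -1.0.

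**Figure D5:**
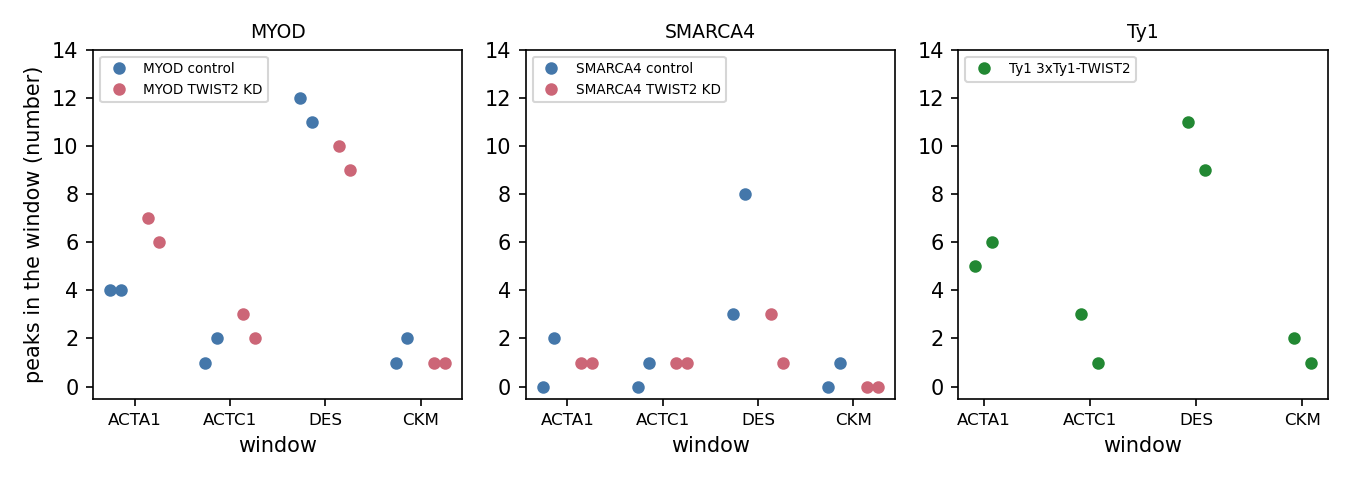
Number of MYOD, SMARCA4 and Ty1 peaks (y axis) in each window (x axis); each point is a library, with control in blue, TWIST2 KD in red and 3xTy1-TWIST2 in green. Summed over libraries the DES window has the most peaks of each antibody, and MYOD groups do not overlap in the ACTA1 and DES windows.

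Tagged TWIST2 was found in all 4 windows, with 11 and 9 Ty1 peaks in the DES window, 5 and 6 in the ACTA1 window, 3 and 1 in the ACTC1 window and 2 and 1 in the CKM window. Of 26 merged Ty1 regions, 12 were found in replicate 1 as well as replicate 2 (46.2%, against 50.3% of all Ty1 regions) and are called TWIST2 regions: 8 in DES, 3 in ACTA1, 1 in CKM and 0 in ACTC1. Of the 12, 5 coincided with a MYOD region of all 4 libraries. Seen from MYOD, these were 5 of 14 shared regions (35.7%, against 46.6% of all shared MYOD regions), so the share lay below the genome's.

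The TWIST2 region of the ACTA1 window that coincided with a MYOD region of all 4 libraries was 229544501 to 229544766, with Ty1 centres 34 and 4 bp from the mean MYOD centre. The other 4 were in the DES window. At 220252380 to 220252683 the distances were 52 and 17 bp, and at 220295434 to 220295729 they were 36 and 25 bp. At 220304330 to 220304663 they were 58 and 41 bp, and at 220317664 to 220317923 they were 30 and 6 bp. Of these 4 DES sites, 3 lay in H3K27ac regions of all 4 libraries and the site at 220295434 to 220295729 had it in controls only.

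The ACTC1 and CKM H3K27ac regions described above held no TWIST2 region. The ACTC1 domain held 1 Ty1 peak, at 35087275 to 35087513 in replicate 1 alone, and the MYOD site at 35094625 to 35094870 was 7347 and 8009 bp from the nearest Ty1 peaks. The ACTC1 region at 35101040 to 35105587 held 1 peak of each Ty1 library, at 35103041 to 35103279 and 35102635 to 35102865, which did not overlap. At CKM the MYOD site was 46066 and 47009 bp from the nearest Ty1 peaks. At ACTA1 the MYOD site 229570434 to 229570676 was 23590 and 6354 bp from them. Ty1 signal in untagged cells was not analysed here, which leaves no measure of background for these peaks.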

How the data were processed

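ChIP-seq peak lists of 14 libraries of RD cells were used; the 10 input samples were not analysed here. The submitters' processing notes list HOMER 4.4, Bowtie2 2.3.4.3, bedtools 2.29.2, SAMtools 0.1.19 and build GRCh37 (hg19), without their roles. The deposited H3K27ac, MYOD and Ty1 lists hold start and end of each peak with no score. The SMARCA4 lists were called per library with HOMER at a false discovery rate of 0.001 and at least 4-fold over input and over the local 10000 bp, per the file headers. Their deposited normalized tag signal, peak score and fold ratio over input are the authors' values. Only 7.09% to 7.75% of GRCh38 protein-coding start sites lay under an H3K27ac peak (4.14% to 4.64% after a shift of 1 Mb), so the positions are not GRCh38.

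Peaks overlapping a window were counted whole. Peaks of the 4 libraries of an antibody that overlapped by at least 1 bp were merged. Regions were called KD-only or control-only (both libraries of 1 group, none of the other) or shared (all 4). Widths were summed per region. Groups were compared by exact two-sided permutation tests over libraries, and shares were set beside all merged regions or all 100 kb tiles with a peak. Named were the 3 widest shared H3K27ac regions and the 3 shared MYOD and SMARCA4 regions earliest in the lists in each window, every KD-only and control-only region, and TWIST2 regions at MYOD or SMARCA4 regions of 2 or more libraries; further regions were chosen after their values were seen. The windows and lists were chosen with earlier results of these data known. Class calculations were tested on simulated wide peaks that always overlapped between libraries. The simulated data did not cover narrow peaks that barely overlap or just miss each other. Python 3.11.15, numpy 2.4.6, pandas 2.3.3 and matplotlib 3.10.9 were used.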

Additional observations from a re-analysis of the deposited data

How the results depend on the processing

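With 2 libraries per group no test here can reach significance, so stability is a matter of direction only. The 4 H3K27ac differences kept their direction in all 40 alternatives, but not their size: the first 50% of each list, in an order the files do not explain, gave 5949.5 bp at ACTA1, -975 bp at DES and 1506 bp at CKM, where the groups then overlapped, and scaling to library totals gave 881 bp at ACTA1 and -8879 bp at DES. Many of these 40 could not have turned a direction. Leaving out 1 library cannot reverse groups that do not overlap. Replicate blocks repeat the mean difference by construction, and clipping peaks to the window changed no value. Of the 120 alternatives of the 12 window differences, which include such blocks, 107 kept their direction or, where the difference was 0, their value. Blocking by replicate number gave paired differences of 3004.5, 13728, -3280 and 2512.5 bp of H3K27ac for ACTA1, ACTC1, DES and CKM. Each had an exact sign-flip p = 0.5, the smallest 2 pairs allow, so no call could have changed. Differences between replicates 1 and 2 correlated weakly between groups over tiles (r = 0.0443, 0.0159 and -0.0186 for H3K27ac, MYOD and SMARCA4), so the numbers are not shown to pair libraries. Using the first 50% of each list turned the CKM MYOD difference from -0.5 to 0.5 peaks, moved SMARCA4 differences to -0.5 at ACTA1, 0.0 at ACTC1 and 0.0 at CKM, and moved the H3K27ac counts to 5 KD-only and 1 control-only regions. Scaling to library totals moved the SMARCA4 difference at ACTA1 from 0.0 to 0.54. Lists of equal length gave SMARCA4 differences of 0.0 at ACTC1 and CKM, 2 KD-only and 1 control-only H3K27ac regions and 2 control-only MYOD regions. The central part of the windows gave a SMARCA4 difference of 0.0 at ACTC1 and 1 control-only SMARCA4 region. Asking for only 1 library of a group gave 2 KD-only H3K27ac, 6 KD-only and 4 control-only MYOD, and 8 KD-only and 13 control-only SMARCA4 regions. Merging peaks up to 500 bp apart left 0 control-only MYOD regions, and asking for a shared part of 0.5 of the shorter peak gave 2 KD-only and 2 control-only MYOD regions. Leaving out each library in turn gave MYOD differences of -1.0 to 0.0 at CKM. SMARCA4 differences were then -1.0 to 1.0 at ACTA1, 0.0 to 1.0 at ACTC1 and -1.0 to 0.0 at CKM. It gave 1 to 2 KD-only H3K27ac, 1 to 5 KD-only MYOD, 2 to 4 control-only MYOD, 0 to 5 KD-only SMARCA4 and 2 to 12 control-only SMARCA4 regions. The cause of these shifts was not tested; a group reduced to 1 library admits peaks found once. The H3K27ac, MYOD and Ty1 lists give no depth, so a missing peak there is not an absence of signal.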
